A study of Mus musculus with 22 samples.

Results

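The synaptic vesicle release machinery was followed here through 38 genes in 22 single mouse retinal cells, out of 18193 genes read on the same arrays. The genes were chosen by name: the SNARE proteins and the factors that take SNAREs apart, vesicle membrane proteins, Rab3 and active zone proteins, complexins, and a few proteins of vesicle retrieval, with synaptotagmins left out. Earlier results of these data were known when they were chosen. The cells were profiled one by one to describe the variety of developing ganglion and amacrine cells. They comprised 3 photoreceptors (1 adult rod and 2 P0 cells), 13 ganglion cells (E12.5, 3 cells; E13.5, 1 cell; E14.5, 2 cells; E15.5, 3 cells; P0, 4 cells) and 6 amacrine cells (1 of E16.5 and 5 of P0). P0 is the day of birth, and E marks the embryonic day. No treatment or genetic change is named for any cell. The strain is CD1 where the labels give one, the age of the adult is not given, and no animal is named. The authors named each cell as a ganglion, amacrine or photoreceptor cell after it had been profiled, so the types were themselves read from gene expression.

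Neurotransmitter is released when a vesicle fuses with the presynaptic membrane. A SNARE on the vesicle, a VAMP, zips together with a syntaxin and SNAP-25 on the plasma membrane, complexins bind and regulate the assembled SNAREs, and NSF with its SNAP adaptors takes them apart for reuse. Rims, Munc13s, Bassoon and Piccolo organise the active zone where vesicles dock and are primed. Photoreceptors and bipolar cells release transmitter continuously at ribbon synapses, which are known to use syntaxin 3 in place of syntaxin 1 and complexins 3 and 4 in place of complexins 1 and 2, and to lack synapsins. Ganglion and amacrine cells release at conventional synapses.

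Values are array signal on a log2 scale, with a floor of 7.64 (a signal of 200). A gene is called detected in a cell at 9.97 or above (a signal of 1000). Each gene is read by the probe set with the highest mean signal over the 22 cells, so levels are compared between cells and not between genes. Cells that share a type and a stage were possibly taken from a single animal, so they were averaged into 9 type-and-stage samples for all tests, and n counts these samples unless cells are named. Precision is limited by the number of arrays.

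Between 1526 and 4330 genes were detected per cell. Crx, Nrl, Rbp3, Sag and Pdc, which mark photoreceptors, were detected in 3 of 3 photoreceptors. The ganglion cell gene Ebf3 was detected in 13 of 13 ganglion cells and in 0 of 6 amacrine cells, and the amacrine gene Tfap2b in 0 of 13 ganglion cells and in 6 of 6 amacrine cells. Not all markers separated the types so fully. Of 13 ganglion markers, ganglion cells held 5 to 11, amacrine cells 0 to 4 and photoreceptors 1 or 2. Of 12 amacrine markers, amacrine cells held 4 to 7, ganglion cells 1 or 2 and photoreceptors 2 or 3. Of 12 photoreceptor markers, photoreceptors held 8 to 11, ganglion cells 0 to 2 and amacrine cells 0. Pax6, an amacrine marker here, was detected in 13 of 13 ganglion cells. Markers of other cell types were present in some libraries. P0 photoreceptor E1 also held Gad1, Cabp5 and Pcp2, P0 photoreceptor H1 held Rlbp1, Glul and Clu, and the adult rod held Gad1, Mitf, Aldoc and Clu. P0 amacrine cell D1 held Slc1a3, Top2a, Fgf15, Prkca and Sncg, none of which was detected in another amacrine cell. The E14.5 ganglion cells held 5 and 8 of 10 progenitor markers, against 1 to 3 at E12.5, and 2 and 3 of 8 lens and pigment epithelium markers. The adult rod and E16.5 amacrine cell J6 had a median signal over all probe sets of 192 and 198, against 32.9 to 79.1 in the other 20 arrays.

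Snap25, the plasma membrane SNARE, was the one gene of the 38 detected in all 22 cells. Its level ran from 13.14 in E14.5 ganglion cell E1 to 17.45 in the adult rod. Its SNARE partners were patchy. Vamp2, the main vesicle SNARE of conventional synapses, was detected in 19 cells, Stx1a in 10, Stx3 in 7 and Vamp3 in 9. A full set of Snap25, a syntaxin and a VAMP was detected in 3 of 3 photoreceptors, 8 of 13 ganglion cells and 3 of 6 amacrine cells. The next most frequent genes were Snap91, a clathrin adaptor for vesicle retrieval, in 18 cells, Napb, a SNAP adaptor of NSF, in 16, and Bsn, the Bassoon scaffold of the active zone, in 15. In all, 12 genes were detected in at least 11 cells.

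**Figure D1:**
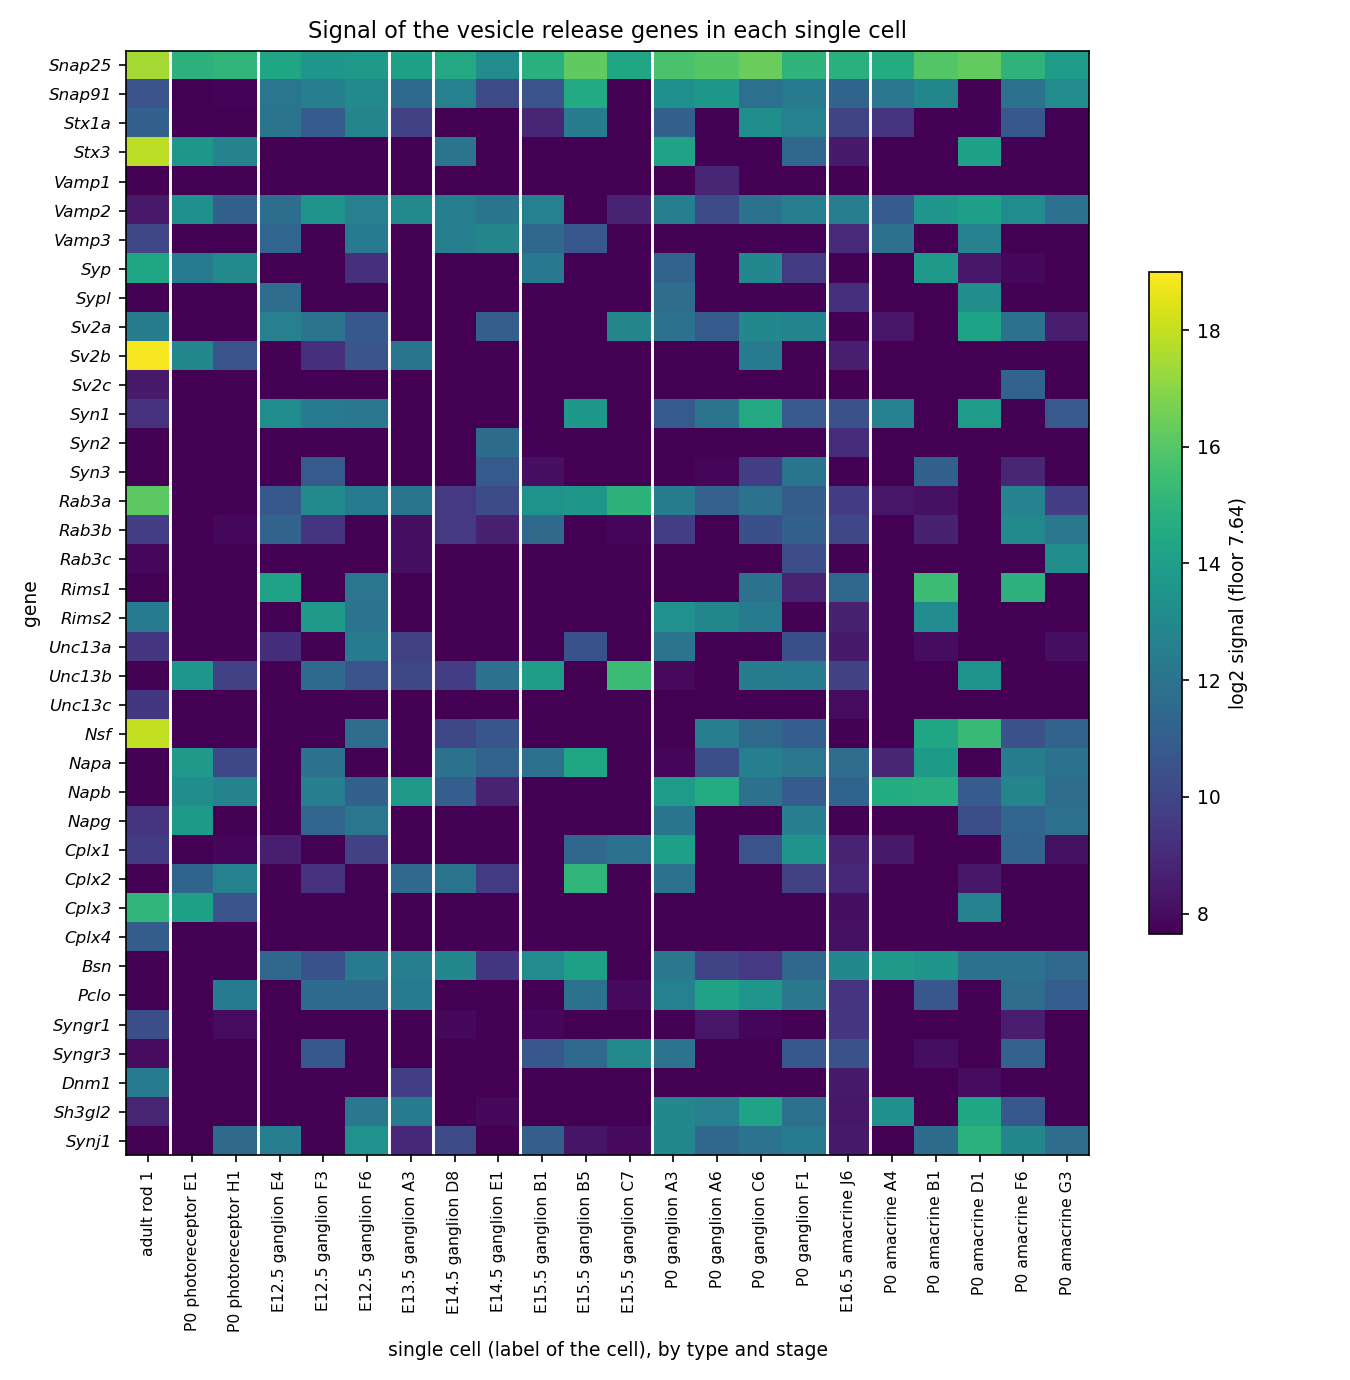
Log2 signal of each of the 38 vesicle release genes (rows) in each of the 22 single cells (columns, grouped by type and stage, white lines between groups). The darkest shade is the floor of 7.64; the row of Snap25 is bright in every cell, while Stx3, Sv2b and Cplx3 are detected in all 3 photoreceptor columns at the left and in 4, 3 and 1 of the other 19 cells.

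Single cells differed widely in how much of the machinery they showed. The count of the 38 genes detected was 15 in the adult rod and 11 in each P0 photoreceptor, ran from 6 to 23 in ganglion cells, and ran from 8 to 19 in amacrine cells. P0 ganglion cell F1 held the most, 23, and also the most detected genes of any kind, 4330. E15.5 ganglion cell C7 held the fewest, 6, and the fewest detected genes, 1526. Between these extremes the counts did not follow the total closely: E14.5 ganglion cell E1 held 11 release genes among 4093 and amacrine cell J6 11 among 3686, while P0 amacrine cell D1 held 15 among 2027.

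**Figure D2:**
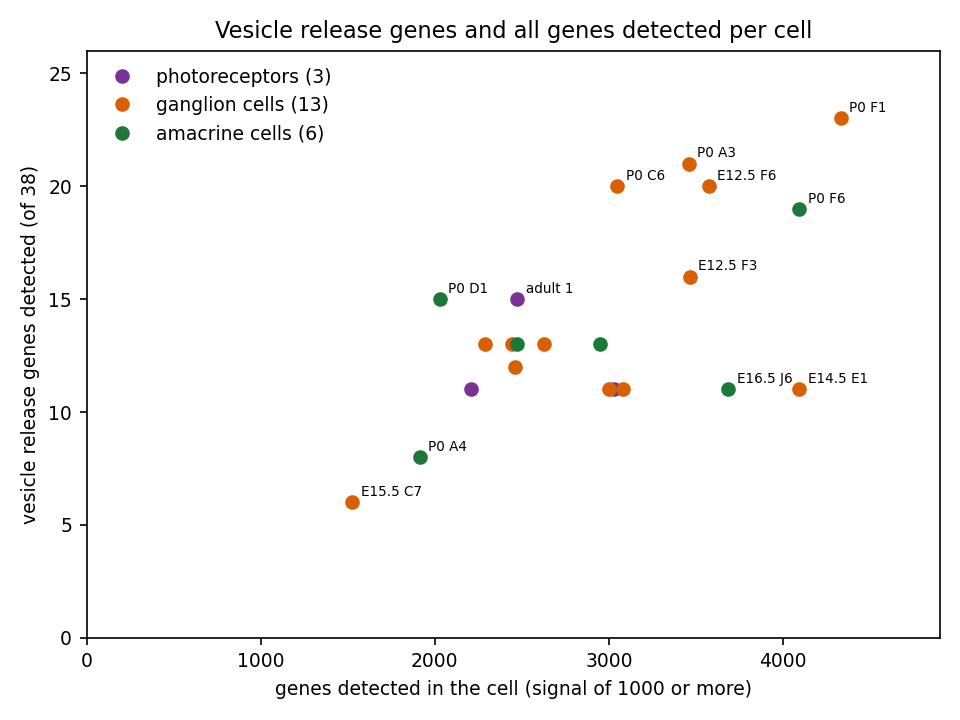
Number of the 38 vesicle release genes detected in each cell against the number of all genes detected in that cell, both at a signal of 1000 or more. Each point is a cell, coloured by type, and cells away from the crowd are labelled; P0 ganglion cell F1 (23 genes) is at the upper right and E15.5 ganglion cell C7 (6 genes) at the lower left.

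Photoreceptors were set against the mean of ganglion and amacrine cells to ask which paralogues go with ribbon synapses. Stx3, Sv2b, Cplx3 and Syp were higher in photoreceptors, by 5.03 to 6.88 on the log2 scale. These were 4 of the 30 release genes that could be tested, 13.3%, against 1.56% of the 7133 genes tested. None of the 30 was lower, against 0.617% of all genes tested. At an unadjusted p under 0.05, 5 of the 30 were higher and 1 lower, against 5.93% and 6.2% of all genes. The tests were made with limma (2 photoreceptor, 5 ganglion and 2 amacrine samples, p-values adjusted by the Benjamini-Hochberg method over the 7133 genes). With the spread estimated gene by gene, Cplx3 alone of the 4 passed. Cplx3 was detected in 1 of the other 19 cells, so it entered the test only through the photoreceptors. Its ganglion samples were all at the floor (SD 0.00), which narrows its gene-wise spread, so this pass is no separate support. Over the 30 genes the median difference was -0.46, against -0.58 over all genes tested, so the list as a whole lay close to the other genes. In all 3 photoreceptors 5 of the 30 were detected, against 4.19% of all genes tested, and 10 were detected in none, against 40.8%.

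Stx3, the syntaxin of ribbon synapses, was at 17.86 in the adult rod and at 13.67 and 12.72 in the P0 photoreceptors. In the 13 ganglion cells it ran from 7.64 through a median of 7.64 to 14.17, and in the 6 amacrine cells from 7.64 through 7.64 to 14.16. All photoreceptors were thus well above the floor, and 2 of the other 19 cells, P0 ganglion cell A3 and P0 amacrine cell D1, reached into their range. The photoreceptor samples averaged 15.53 ± 3.30 (SD, n = 2), against 8.60 ± 1.31 in ganglion samples (SD, n = 5) and 8.70 ± 0.35 in amacrine samples (SD, n = 2). The difference was 6.88 ± 1.42 (SE), with a limma adjusted p of 0.000464, and 0.163 with gene-wise variances. Stx1a, the syntaxin of conventional synapses, was at 11.19 in the adult rod and at the floor in both P0 photoreceptors. By cell, Stx3 without Stx1a was detected in 2 photoreceptors, 1 ganglion cell and 1 amacrine cell, and Stx1a without Stx3 in 0 photoreceptors, 5 ganglion cells and 2 amacrine cells.

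Cplx3, a complexin known from ribbon synapses, was at 15.10 in the adult rod and at 14.10 and 10.55 in P0 photoreceptors E1 and H1. It was at the floor in 13 of 13 ganglion cells. The amacrine cells ran from 7.64 through a median of 7.64 to 12.69, and the highest was cell D1, the one other cell in which Cplx3 was detected. Its difference was 5.70 ± 1.26 (SE), with a limma adjusted p of 0.00112, and 0.0311 with gene-wise variances. Outside photoreceptors it was detected in 1 cell, so it entered the test only through the group in which it was high, and its p-values describe that choice as well as the difference. Cplx4, the other ribbon complexin, was detected in the adult rod alone, at 11.00, and was not tested. Of the complexins of conventional synapses, Cplx1 was detected in 0 of 3 photoreceptors, 5 ganglion cells and 1 amacrine cell. Cplx2 was at the floor in the adult rod, at 11.32 and 12.65 in P0 photoreceptors E1 and H1, and detected in 4 ganglion cells and 0 amacrine cells. A second Cplx2 probe set was detected in 3 of 3 photoreceptors, at 10.70 in the adult rod.

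Sv2b, a vesicle membrane glycoprotein, was at 18.86 in the adult rod and at 12.86 and 10.57 in P0 photoreceptors E1 and H1. Ganglion cells ran from 7.64 through a median of 7.64 to 12.26, and amacrine cells from 7.64 through 7.64 to 8.61. The rod was far above all other cells, and 3 ganglion cells overlapped the P0 photoreceptors. The difference was 6.69 ± 1.43 (SE), with a limma adjusted p of 0.000735, and 0.355 with gene-wise variances. Its paralogue Sv2a showed no such pattern, at 12.46 in the adult rod, at the floor in both P0 photoreceptors, and was detected in 9 ganglion cells and 2 amacrine cells. Sv2c was detected in a single cell, P0 amacrine cell F6, at 11.25.

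Syp encodes synaptophysin, an abundant vesicle membrane protein. It was at 14.35 in the adult rod and at 12.31 and 13.03 in P0 photoreceptors E1 and H1. It was detected in 3 ganglion cells, with a highest value of 12.90, and in P0 amacrine cell B1 at 13.80, so 2 of the other 19 cells reached the photoreceptor range. The difference was 5.03 ± 1.36 (SE), with a limma adjusted p of 0.017, and 0.127 with gene-wise variances. Synapsins, which tether vesicles at conventional synapses, were detected by the probe sets used here in 0 of 3 photoreceptors, 9 of 13 ganglion cells and 5 of 6 amacrine cells. On those probe sets the highest photoreceptor value was 9.26, for Syn1 in the adult rod. Another Syn3 probe set read 11.69 in the adult rod and was detected in no other cell, so absence of synapsin transcript from photoreceptors cannot be read from these values.

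The active zone genes were not among the genes that passed. Bsn was at the floor of 7.64 in the adult rod and in both P0 photoreceptors. It was detected in 9 of 13 ganglion cells (7.64 through 11.46 to 14.09) and in 6 of 6 amacrine cells (11.52 through 12.43 to 13.75). Its difference was -4.48 ± 1.46 (SE), with a limma adjusted p of 0.0761 and, with gene-wise variances, of 0.0198. A different Bsn probe set read 11.02 in the adult rod, so absence of Bassoon transcript there cannot be read from these values. Pclo, the Piccolo scaffold, was at 12.37 in P0 photoreceptor H1 and at the floor in E1 and in the adult rod. Rims2, which binds Rab3 and calcium channels, was at 12.32 in the adult rod and at the floor in the P0 photoreceptors. Unc13b, the priming factor Munc13-2, was at 13.60 and 9.88 in P0 photoreceptors E1 and H1 and at the floor in the adult rod. Limma differences for Pclo, Rims2 and Unc13b were -1.22, 1.07 and -0.31, and none passed.

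The 4 calls leaned on particular libraries and probe sets. Without the adult rod, Cplx3 alone passed, with a difference of 4.31, while Stx3, Sv2b and Syp were at 4.55, 3.12 and 4.19. Without amacrine cell J6, the one amacrine cell of E16.5, Stx3 and Sv2b passed and Cplx3 had a limma adjusted p of 0.0511. Stx3 is read by 4 probe sets, and the other 3 differed by -0.02 to 0.61. The second probe set of Sv2b differed by 0.84 and that of Syp was at the floor in the photoreceptors, whereas Cplx3 has a single probe set. Bipolar cells, the other ribbon neurons, are marked by 6 genes measured here, of which photoreceptors held 0 to 2, ganglion cells 0 or 1 and amacrine cells 0 or 1, with mean levels over the 6 genes of 7.64 to 9.77, 7.64 to 8.47 and 7.64 to 9.08. Of 9 glial markers, photoreceptors held 0 to 4, ganglion cells 0 to 3 and amacrine cells 0 to 3. The part of these markers in the differences was not tested.

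**Figure D3:**
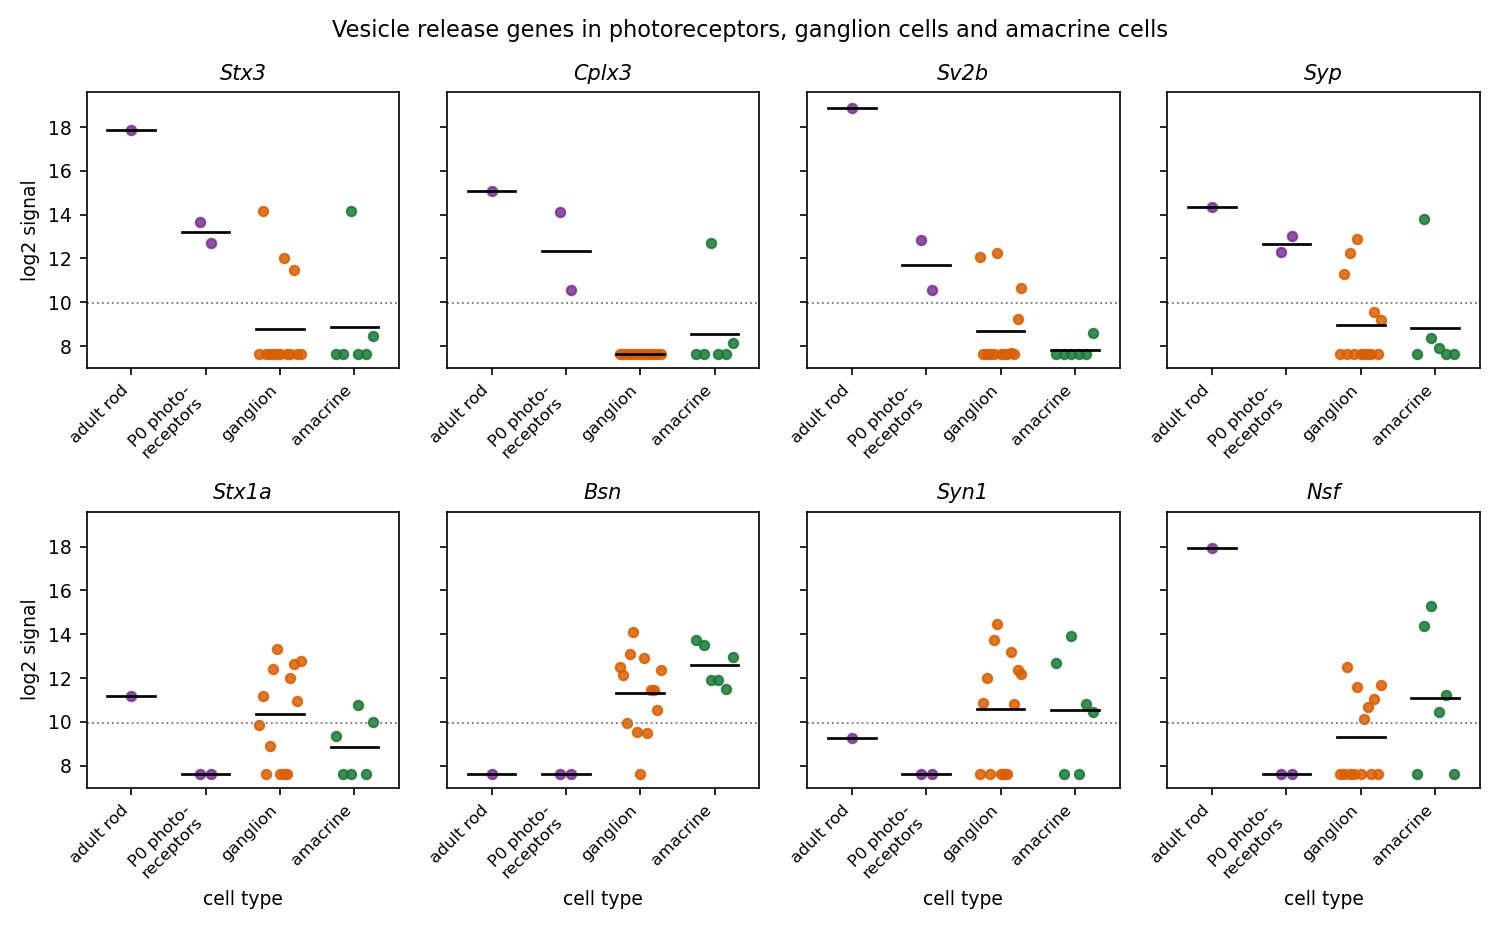
Log2 signal of 8 vesicle release genes in the adult rod, P0 photoreceptors, ganglion cells of all stages and amacrine cells of both stages. Points are cells, bars are means over cells, and the dotted line is the detection level of 9.97; Stx3, Cplx3, Sv2b and Syp are above it in all 3 photoreceptors, and Bsn and Syn1 are below it in all 3.

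The sequence just upstream of the start site is shown for these 4 genes because they were the ones to differ together between photoreceptors and the other cells. Each is the 250 bases before the RefSeq start on build GRCm38.p6, printed on the gene's own strand. Capitals mark TAATCC, the core bound by the photoreceptor factors Crx and Otx2, or TGCTGAC, the core of Nrl and other Maf proteins, on either strand. The windows are chr19:11819404-11819653 (minus strand) for Stx3, chr7:75309263-75309512 (minus strand, the most upstream of 4 listed starts) for Sv2b, chr9:57606282-57606531 (minus strand) for Cplx3 and chrX:7638330-7638579 (plus strand) for Syp.
Stx3: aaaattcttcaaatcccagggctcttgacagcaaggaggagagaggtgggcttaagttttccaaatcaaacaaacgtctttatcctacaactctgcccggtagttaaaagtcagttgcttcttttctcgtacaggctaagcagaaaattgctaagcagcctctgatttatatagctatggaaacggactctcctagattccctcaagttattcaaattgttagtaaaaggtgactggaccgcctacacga
Sv2b: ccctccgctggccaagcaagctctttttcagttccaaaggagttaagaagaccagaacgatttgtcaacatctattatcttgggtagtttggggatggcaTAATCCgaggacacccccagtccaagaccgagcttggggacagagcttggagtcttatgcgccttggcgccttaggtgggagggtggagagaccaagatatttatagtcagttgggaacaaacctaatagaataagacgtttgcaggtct
Cplx3: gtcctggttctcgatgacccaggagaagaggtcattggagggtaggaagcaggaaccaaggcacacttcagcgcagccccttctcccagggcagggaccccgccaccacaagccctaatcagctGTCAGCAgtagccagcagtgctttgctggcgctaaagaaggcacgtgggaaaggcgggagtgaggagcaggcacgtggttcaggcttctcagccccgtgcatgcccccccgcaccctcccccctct
Syp: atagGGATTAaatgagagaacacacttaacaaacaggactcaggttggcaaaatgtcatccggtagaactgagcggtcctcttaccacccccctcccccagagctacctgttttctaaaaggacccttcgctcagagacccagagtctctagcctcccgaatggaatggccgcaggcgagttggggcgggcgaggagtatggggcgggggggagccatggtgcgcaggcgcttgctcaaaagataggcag
Counted from the start site, TAATCC stood at -150 in Sv2b and, on the reverse strand, at -246 in Syp. TGCTGAC stood on the reverse strand at -126 in Cplx3. The Stx3 window held neither set of letters. Among all 32851 windows of this length in the RefSeq table, 6.25% held TAATCC and 3.81% held TGCTGAC. Of the 30 release genes with a window, 2 held TAATCC and 1 held TGCTGAC.

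The adult rod was next set against the 2 P0 photoreceptors, a comparison of 1 sample with 1, so no test was made and a log2 difference of 2 was used as the mark. By that mark 11 of 30 release genes were higher in the adult rod, 36.7%, against 14.5% of all genes tested, and 6 were lower, 20%, against 26.3%. The rod lay above both P0 cells in 18 of the 30 genes and below both in 5, against 30.5% and 15.5% of all genes. Among the 18 were Syn1, Rab3b, Unc13a, Cplx1, Syngr3 and Sh3gl2, at 7.99 to 9.70 in the rod. All of these were below the detection level in the rod and in both P0 cells. The median difference, which includes such genes, was 1.65 for the release genes and 0.00 for all genes. Higher in the rod were Sv2b (7.15), Rims2 (4.68), Stx3 (4.66) and Cplx3 (2.77) from the list of ribbon genes. With them were Nsf, Rab3a, Sv2a, Stx1a, Snap91, Snap25 and Vamp3. Bsn, on the same list, differed by 0.00. Lower were Unc13b (-4.10) and Pclo (-2.36) from that list, together with Napb, Cplx2, Napa and Vamp2. Cplx2 is among these on the probe set used (-4.34), while its second probe set, detected in 8 cells against 6, differed by -0.79. Stx1a is among the higher ones on the probe set used (3.54), while its second was at the floor in the rod and differed by 0.00. The other probe sets of Stx3 differed by -0.04 to 0.95, those of Vamp3 by 0.00 to 0.83, and the second of Snap91 by 0.00. The second probe set of Sv2b differed by 2.54, and the others of Rims2 by 0.00 to 3.25. Among the lower genes, another Napb probe set differed by -3.30 and its remaining ones by 0.00. The second probe sets of Napa and Unc13b differed by 0.00, and the others of Pclo by 0.00 and 0.14. Those of Napa, Unc13b and Pclo were detected in no photoreceptor.

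Nsf, the ATPase that takes SNARE complexes apart, was at 17.95 in the adult rod and at the floor of 7.64 in both P0 photoreceptors, a difference of 10.30. That value rests on 1 of its 4 probe sets, since another read the floor in the rod and differed by -2.48. Rab3a, the GTPase that brings vesicles to the active zone, was at 16.15 in the adult rod and at the floor in both P0 photoreceptors. Its second probe set gave 14.90 in the rod and a difference of 7.26. Snap25 was at 17.45 in the adult rod and at 14.94 and 15.07 in the P0 photoreceptors, and its second probe set also differed, by 2.09. With quantile normalization the Snap25 difference was -1.16, so its direction depends on the scaling. Snap91 was at 10.53 in the adult rod and at 7.64 and 7.77 in the P0 photoreceptors, and Vamp3 at 10.05 in the adult rod and at the floor in both P0 photoreceptors, each close to the detection level.

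Of the 3 SNAP adaptors of Nsf, Napa and Napb were lower in the adult rod. Napb was at the floor in the adult rod and at 13.20 and 12.74 in P0 photoreceptors E1 and H1. Napa was at the floor in the adult rod and at 13.73 and 10.09 in the same P0 cells. The P0 cells disagreed on Napg, the remaining adaptor, which was at 9.35 in the adult rod and at 13.85 and 7.64 in E1 and H1. Vamp2 was at 8.42 in the adult rod, below the detection level, and at 13.34 and 11.15 in the P0 photoreceptors. Its second probe set, detected in no cell, read 8.99 in the rod and differed the other way, by 1.34. Dnm1, the dynamin that pinches off retrieved vesicles, was detected in the adult rod alone, at 12.31, as was Syngr1, a vesicle membrane protein, at 10.35. The rod's high median signal and its markers of other cell types stand beside all these differences, and their part in them was not tested.

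Newborn ganglion and amacrine cells were compared at P0, the one stage with several cells of both types. In that comparison 6 of 30 release genes lay at least 2 log2 units higher in P0 ganglion cells, 20%, against 10.9% of all genes tested, and 0 lay that much lower, against 4.79%. The 6 were Pclo, Rims2, Cplx1, Stx1a, Rab3a and Sh3gl2, which span the active zone, the SNAREs and their regulators, Rab3 and vesicle retrieval. The median difference was 1.11 for the release genes and 0.23 for all genes. These are 1 sample against 1, so no test was made. P0 ganglion cells also had more detected genes of every kind, 2289 to 4330 with a median of 3253, against 1915 to 4093 with a median of 2469 in P0 amacrine cells, and the part of this in the differences was not tested.

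Pclo was at 12.62, 14.19, 13.56 and 12.14 in P0 ganglion cells A3, A6, C6 and F1, against 7.64, 10.72, 7.64, 11.70 and 11.02 in P0 amacrine cells A4, B1, D1, F6 and G3. It was the one release gene of the 30 whose cells did not overlap, 3.33%, against 1.67% of all genes tested on that side (0.336% on the lower side), with means of 13.13 ± 0.92 in ganglion cells (SD, n = 4 cells) and 9.75 ± 1.95 in amacrine cells (SD, n = 5 cells). Piccolo's partner Bsn leaned the other way, at 12.15, 9.96, 9.53 and 11.46 in P0 ganglion cells A3, A6, C6 and F1, against 13.75, 13.51, 11.89, 11.92 and 11.52 in P0 amacrine cells A4, B1, D1, F6 and G3. The Bsn difference of -1.74 did not reach the mark, and the cells overlapped.

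Rims2 was at 13.39, 12.86, 12.39 and 7.64 in P0 ganglion cells A3, A6, C6 and F1, against 13.13 in P0 amacrine cell B1 and the floor in the other 4 amacrine cells. Its difference of 2.83 rests on 1 of 5 probe sets, since the other 4 ran from -0.98 to 0.52. Its paralogue Rims1 was detected in 1 P0 ganglion cell, C6 at 11.87, and in 2 P0 amacrine cells, B1 at 15.45 and F6 at 14.93. Which Rims gene was detected thus differed from cell to cell within a type. Stx1a was at 11.16, 7.64, 13.31 and 12.65 in P0 ganglion cells A3, A6, C6 and F1, and among P0 amacrine cells was detected in F6 alone, at 10.75. Its second probe set differed by 1.86, under the mark, against 2.58 on the one used. Cplx1, the complexin of conventional synapses, was at 14.05, 7.64, 10.57 and 13.52 in the same ganglion cells and was detected in F6 alone of the P0 amacrine cells, at 11.28. A6 was the ganglion cell without Stx1a, Cplx1 and Syp, and F6 the amacrine cell with the fullest set, 19 of 38.

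Rab3a was detected in 4 of 4 P0 ganglion cells, at 12.42, 11.20, 11.90 and 10.99 in A3, A6, C6 and F1, against 1 of 5 P0 amacrine cells, F6 at 12.66. Both of its probe sets differed, by 2.33 and 2.50. Sh3gl2, endophilin A1, which works in vesicle retrieval, was at 12.90, 12.57, 14.17 and 11.82 in the ganglion cells, against 13.35, 7.64, 14.36, 10.78 and 7.64 in amacrine cells A4, B1, D1, F6 and G3. Its ganglion cells were all high and its amacrine cells split between the floor and the top of the range. Snap25, Vamp2 and Napb were detected in all P0 cells of both types, with differences of 0.62, -0.90 and -0.11.

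The count of 6 depended on single cells. Without P0 ganglion cell A6 it was 11, with Stx3, Sv2a, Syp, Unc13a and Unc13b added. Without P0 amacrine cell D1, the cell with glial and progenitor genes, the count in both directions was 10, with Stx3, Sv2a, Syn1, Unc13b and Rims1 added and Rab3a, at 1.92, under the mark. Other genes also fell under it when a cell was left out: Sh3gl2 was at 1.68 without P0 ganglion cell C6 and at 1.33 without P0 amacrine cell B1 or G3, Stx1a at 1.88 without P0 ganglion cell C6, and Cplx1 at 1.94 without P0 ganglion cell A3.

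**Figure D4:**
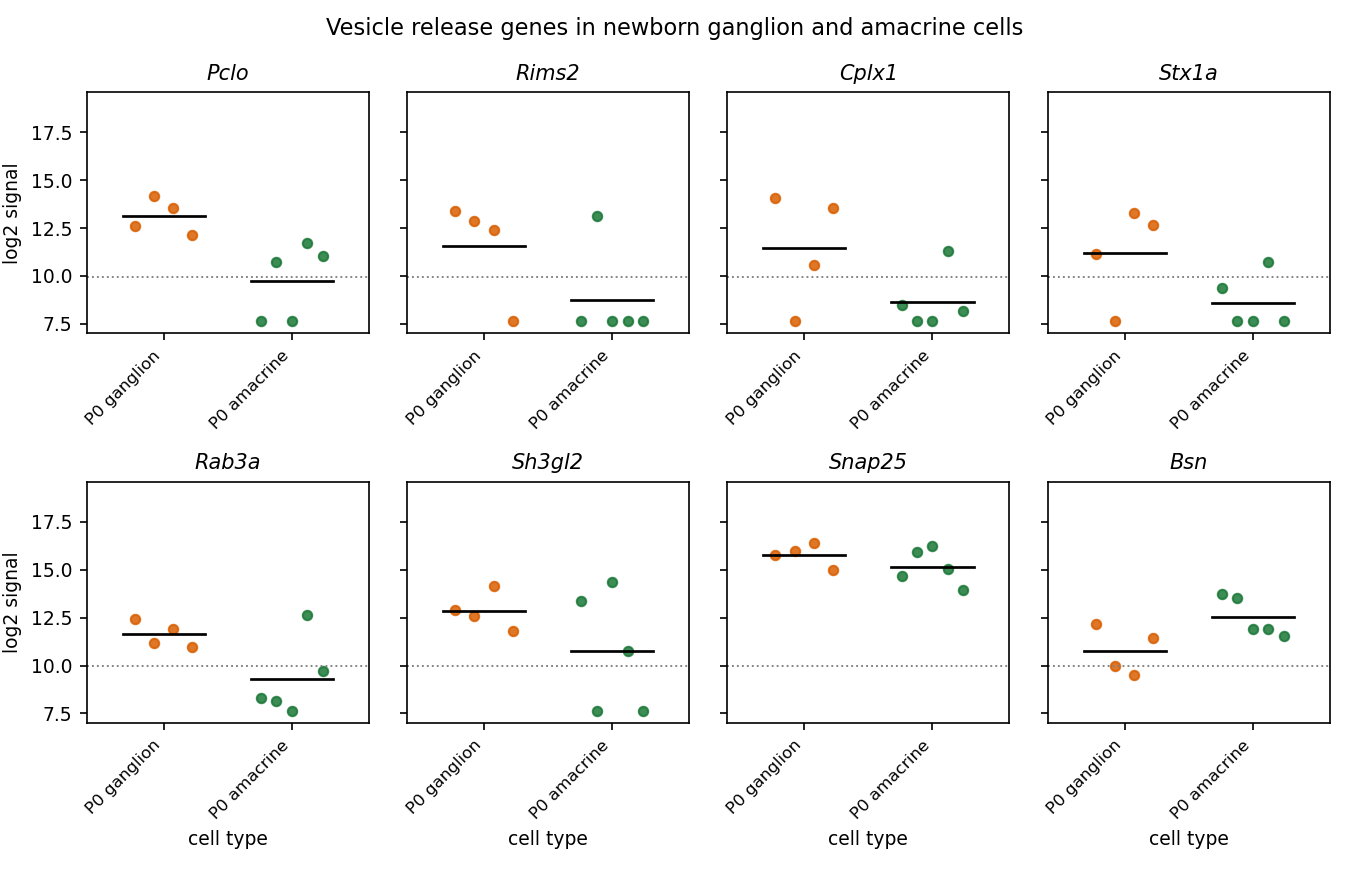
Log2 signal of 8 vesicle release genes in the 4 P0 ganglion cells (left in each panel) and the 5 P0 amacrine cells (right). Points are cells, bars are means over cells, and the dotted line is the detection level of 9.97; Pclo is the panel in which the 2 types do not overlap, and Snap25 is high in all 9 cells.

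Over all stages the type difference was not detectable. In the limma fit of ganglion against amacrine samples (5 against 2), 0 of 30 release genes passed in either direction, against 0.0421% of all genes higher and 0.028% lower, and 1 had an unadjusted p under 0.05, lower in ganglion samples, as did 2.8% of all genes (1.12% on the higher side). That gene was Rims1, at -2.44 ± 1.20 (SE), with a limma adjusted p of 0.998. Rab3a was the highest on the ganglion side, at 2.48 ± 1.48 (SE), with a limma adjusted p of 0.998, and was detected in 12 of 13 ganglion cells against 1 of 6 amacrine cells. The standard errors of the 30 genes ran from 0.74 to 1.49, with 2 amacrine samples.

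The order of onset in ganglion cells was read as the earliest stage at which more than 50% of cells held the gene. By that rule 16 of the 38 genes were already on at E12.5, when ganglion cells are newly born: Snap25, Stx1a, Vamp2 and Vamp3 among the SNAREs, Napb and Napg, Sv2a and Syn1 on the vesicle, Rab3a, Rims1, Rims2, Unc13b, Bsn and Pclo at the active zone, and Snap91 and Synj1 for retrieval. Among the 30 testable genes this was 53.3%, against 39.5% of all genes tested. Later came Sv2b, Cplx2 and Sh3gl2 at E13.5, Nsf and Napa at E14.5, and Cplx1 and Syngr3 at E15.5. No gene had its onset at P0, and 15 never met the rule. Among the 30 testable genes the shares were 10% at E13.5, 6.67% at E14.5, 6.67% at E15.5, 0% at P0 and 23.3% with no onset, against 16.8%, 5.08%, 2.99%, 3.76% and 31.8% of all genes tested. E13.5 is 1 cell, so an onset there rests on that cell.

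After their onset some genes were detected at every later stage and others were not. Snap25, detected in 13 of 13 ganglion cells, was at 14.32, 13.61 and 13.73 in the E12.5 cells E4, F3 and F6, at 14.15 at E13.5, at 14.49 and 13.14 in the E14.5 cells D8 and E1, at 14.86, 16.22 and 14.36 in the E15.5 cells B1, B5 and C7, and at 15.75, 15.99, 16.40 and 15.01 in the P0 cells A3, A6, C6 and F1. The P0 cells were all above the E12.5 cells. Its slope was 0.48 ± 0.23 per stage step (SE, limma, 5 stage samples), with a limma adjusted p of 0.999. Without the E14.5 and E15.5 cells, 5 of 5 of which held the globin gene Hbb-y, 3 stage samples were left and the slope was 0.49 with a limma adjusted p of 0.00921. This fit was added to those planned. With 3 samples its p-value leans on the spread borrowed from other genes, so no rise of Snap25 is concluded from it. The cells that remained were not free of such transcripts, since the E13.5 cell held the lens gene Cryaa at 12.52 and the E12.5 cells E4 and F6 held the progenitor gene Fgf15 at 12.69 and 12.18.

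Stx1a was detected in 3 of 3 cells at E12.5, in 0 of the 3 cells of E13.5 and E14.5, in 1 of 3 E15.5 cells and in 3 of 4 P0 cells. The E13.5 cell, at 9.84, was just under the detection level, and the E15.5 cell was at 12.42. Syn1 and the Rims genes showed the same gap: Syn1 was detected in 3 of 3 cells at E12.5, 1 of 6 between E13.5 and E15.5, and 4 of 4 at P0. A Rims gene was detected in 3 of 3 cells at E12.5, in none of the 6 between, and in 3 of 4 at P0. Genes of any kind detected per cell were 2628 to 3575 at E12.5, 3000 at E13.5 and 3078 to 4093 at E14.5. The E15.5 cells had 1526 to 2460 and the P0 cells 2289 to 4330, and the part of this in the gap was not tested. Rab3a kept on, in 12 of 13 ganglion cells, with its highest values of 13.49, 13.65 and 14.98 at E15.5. Sh3gl2 was detected in 1 of 3 cells at E12.5, in the E13.5 cell, in no cell at E14.5 or E15.5, and in 4 of 4 cells at P0.

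No complexin was detected in an E12.5 ganglion cell, where Cplx1 reached at most 9.89. Cplx2 was first detected at E13.5, at 11.51, and Cplx3 and Cplx4 in 0 of 13 ganglion cells. Cplx1 was at 11.44 and 11.81 in the E15.5 cells B5 and C7 and at 14.05, 10.57 and 13.52 in the P0 cells A3, C6 and F1, with a slope of 0.81 ± 0.54 (SE, limma adjusted p of 0.999). Syp was detected in E15.5 cell B1 at 12.23 and in the P0 cells A3 and C6 at 11.28 and 12.90, with a slope of 0.59 ± 0.40 (SE, limma adjusted p of 0.999). Across the 28 release genes in the stage fit, 0 passed in either direction, against 0% of all genes rising and 0.018% falling. At an unadjusted p under 0.05 stood 1 gene, Snap25, on the rising side, where 0.775% of all genes stood, and 0 on the falling side (0.757%). The median slope was 0.12, against -0.02 for all 5549 genes. The number of the 38 genes detected per cell was 13 to 20 at E12.5, then 11 in each cell of E13.5 and E14.5, 6 to 13 at E15.5 and 13 to 23 at P0, so the highest counts lay at the 2 ends of the series. At E12.5 the cells held 43.3 to 66.7% of the 30 testable genes and 34.9 to 47.5% of all 7133 genes tested. At E13.5 these shares were 36.7% and 39.3%, and at E14.5 33.3 to 36.7% and 40 to 51.9%. At E15.5 they were 20 to 43.3% and 20 to 32.9%, and at P0 43.3 to 73.3% and 29.5 to 57.4%. The part of overall detection in the counts was not tested.

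**Figure D5:**
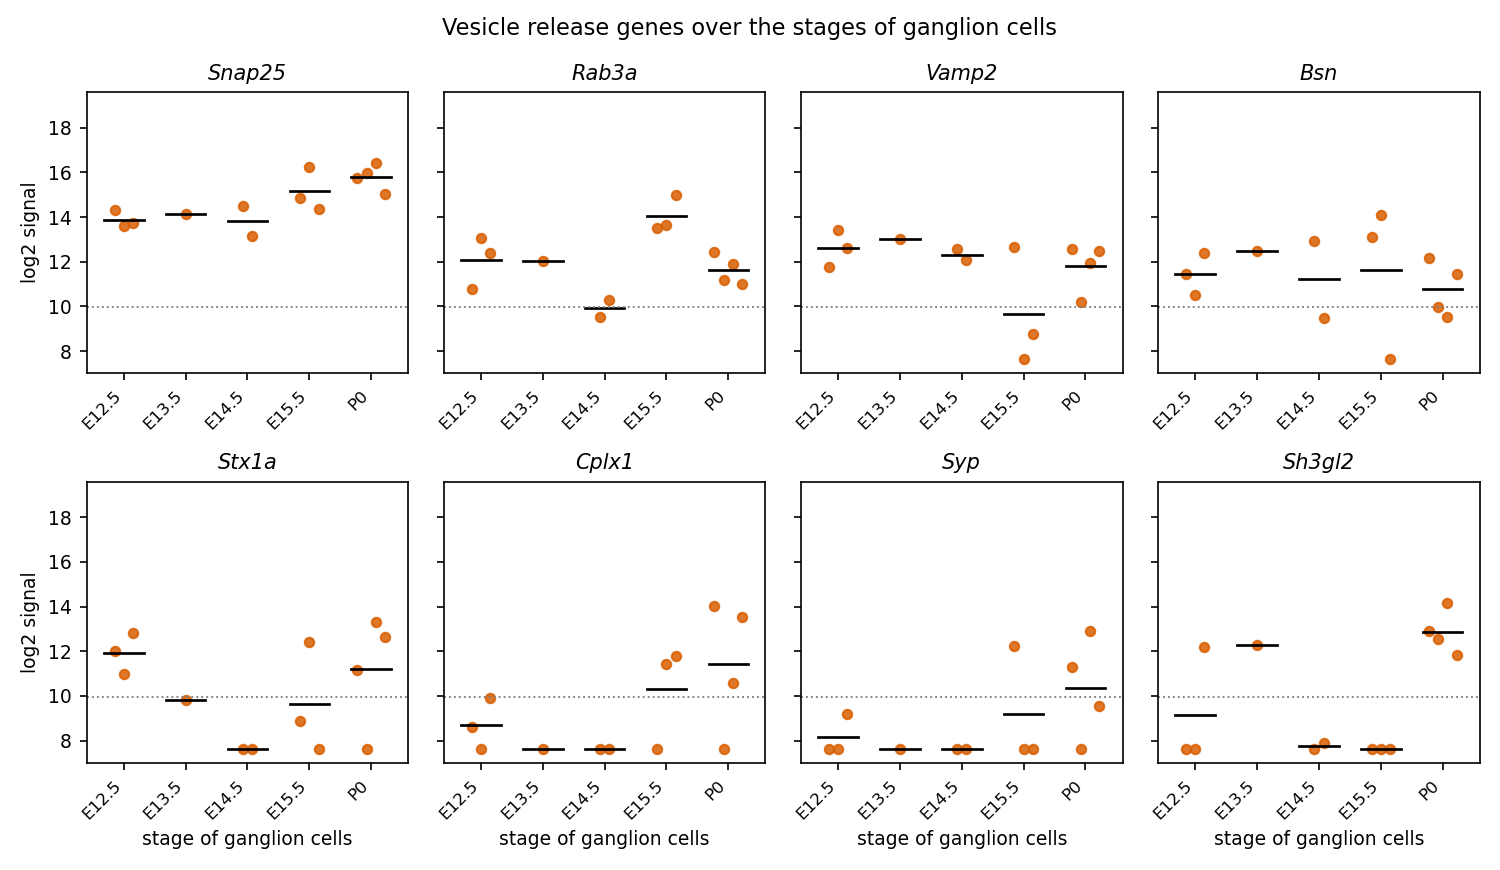
Log2 signal of 8 vesicle release genes in ganglion cells by stage, with 3 cells of E12.5, 1 cell of E13.5, 2 cells of E14.5, 3 cells of E15.5 and 4 cells of P0. Points are cells, bars are means over cells, and the dotted line is the detection level of 9.97. Snap25 is above it at every stage, and Cplx1 and Syp are detected only from E15.5. Stx1a is above it in 3 of 3 E12.5 cells, 1 of 3 E15.5 cells and 3 of 4 P0 cells.

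Other genes of release and recycling were counted from a separate list of 85 on the array, of which 57 could be tested between types. In photoreceptors against neurons 1 of 57 passed on the higher side and 0 on the lower, against 1.56% and 0.617% of all genes tested. That gene was Doc2a, a calcium sensor of vesicle fusion, higher by 5.20 ± 1.24 (SE, limma adjusted p of 0.00366, and 0.379 with gene-wise variances). Doc2a was detected in the adult rod, in 1 of 2 P0 photoreceptors, in 1 of 5 P0 amacrine cells and in 0 of 4 P0 ganglion cells. It thus entered the test through the group in which it was high, and its p-values describe that choice as well as the difference. Between ganglion and amacrine samples 0 of 57 passed, and the largest differences were those of Rims3 at 3.29, Vapa at 2.27, Erc1 at -2.26 and Ppfia2 at -1.83. At P0, 6 of 57 were at least 2 higher in ganglion cells, against 10.9% of all genes tested, and 3 at least 2 lower, against 4.79%. These counts lay close to the shares of all genes. The higher ones were Rims3, Eps15, Itsn1, Dnm3, Dnajc5 and Bin1, and the lower ones Ap2a2, Stx7 and Ctbp2. Rims3, a short Rim protein, averaged 11.52 ± 1.08 in P0 ganglion cells (SD, n = 4 cells) and was at the floor in 5 of 5 P0 amacrine cells. In the adult rod 7 of 57 were at least 2 higher than in P0 photoreceptors, against 14.5% of all genes tested. On the other side 20 were at least 2 lower, against 26.3%. Among the lower ones was Ctbp2, whose gene also encodes the ribbon protein RIBEYE, at the floor in the adult rod against a mean of 12.22 in P0 photoreceptors. That is 1 cell read by 1 probe set, so absence of the transcript there cannot be read from it. Over ganglion stages 0 of 48 passed, and the steepest slopes were those of Ctbp2 at -0.99, Svop at 0.85, Atp6v1a at 0.85 and Amph at 0.75.

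The remaining 8 release genes fell short of the 3 cells required for a test. Vamp1 and Unc13c were detected in no cell. Sv2c, Syn2, Cplx4, Syngr1 and Dnm1 were each detected in 1 cell, and Rab3c in 2, P0 amacrine cell G3 at 13.26 and P0 ganglion cell F1 at 10.34. A value at the floor does not show that a gene was silent.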

How the data were processed

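Each cell was picked by pipette after papain dissociation, oligo dT primed cDNA was made from its RNA and tailed, and the product was amplified by 35 cycles of PCR, per the labels' protocols. It was hybridised to Affymetrix mouse expression arrays, per the labels. The deposited values are signal intensity on a linear scale, which the authors computed with MAS5 per the submitters' processing notes. The 2% trimmed mean was 500 on all arrays but that of P0 amacrine cell B1, at 18.1, which was multiplied by 27.6.

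Signal was raised to a floor of 200 and log2 transformed. Of 45101 probe sets, 34958 had 1 gene symbol, 932 had several and 9211 had none, and the probe set with the highest mean signal stood for each of 18193 genes. The 7133 genes detected in at least 3 cells were tested (5549 genes, detected in at least 3 of 13 ganglion cells, for stages). The fits used limma 3.58.1 (R 4.3.3), its eBayes step with a trend, and had 6 residual degrees of freedom for types and 3 for stages, with Benjamini-Hochberg adjustment at 0.05. The prior degrees of freedom were infinite, so the spread came from the trend over level, and gene-wise variances were added as an alternative after seeing the data. The fits without the E14.5 and E15.5 ganglion cells were also added to those planned. The highest Pearson correlation among 231 pairs of arrays was 0.623. The fit was also run on simulated data, with values shuffled within each gene over the samples and known shifts added. Such data do not keep the unequal spread of the photoreceptor samples, so nothing about the calls is concluded from them. Genes given with values in every cell were those that passed, those past a log2 difference of 2, and a list of ribbon genes with their conventional counterparts. The 38 genes and all lists were chosen with earlier results of these data known. Limma p-values set a difference against the spread between type-and-stage samples typical of genes at that level, not the gene's own spread. Those samples differ in stage. Of the 92 other genes of release and recycling listed, 85 were read and the rest were not analysed here. Promoter windows are from RefSeq GRCm38.p6.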

Additional observations from a re-analysis of the deposited data

Results flagged for a closer look

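In P0 groups of 4 and 5 cells, 12 of 57 gene and group pairs held a cell whose gap to its nearest neighbour exceeded Dixon's 95% critical value. Chance flags about 1 group in 20 for untied values, a rate that does not hold here, because many cells are tied at the floor and a single cell above it is then picked out whatever its level. P0 amacrine cell D1 accounted for 6 of them: Stx3 at 14.16, Cplx3 at 12.69, Sypl at 13.24, Unc13b at 13.42 and Cplx2 at 8.39 lay above the other P0 amacrine cells, and Snap91 at 7.64 lay below them. P0 amacrine cell B1 stood apart in Syp at 13.80 and Rims2 at 13.13, and P0 amacrine cell F6 in Cplx1 at 11.28 and Syngr3 at 11.23. Among P0 ganglion cells, A3 stood apart in Sypl at 11.69 and C6 in Sv2b at 12.26. Cell D1 also held Prkca at 14.99, Slc1a3 at 12.52, Fgf15 at 13.55, Top2a at 13.49 and Sncg at 13.54, beside the amacrine genes Tfap2b at 13.95 and Gad1 at 13.30, and the part of these in its values was not tested.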

How the results depend on the processing

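Where 4 release genes passed in photoreceptors in the fit reported, the count was 2 with gene-wise variances (Cplx3 higher and Bsn lower), 1 with the mean over a gene's probe sets, 2 with the median over cells, and 7 without the P0 photoreceptors, where the rod alone stood for the type. Leaving out each cell in turn gave 1 to 4. The photoreceptor differences of Nsf, Unc13b and Rims2 changed sign when a photoreceptor was left out, with ranges of -1.75 to 3.62, -1.24 to 1.74 and -1.27 to 1.34. Leaving out a cell gave 6 to 11 release genes past the mark at P0, 18 to 19 for the adult rod, where 17 passed with all cells, and 0 in the ganglion against amacrine and stage fits. For the adult rod the mean over probe sets gave 9, and quantile normalization gave Snap25 -1.16. Without the E14.5 and E15.5 ganglion cells 1 gene, Snap25, passed the stage fit. The cause of these changes was not tested. The other settings tried (floors of 100 and 400, detection in at least 1 or 5 cells, eBayes without trend, the probe set by mean log2 signal) kept these counts within 1.5 times. No paired analysis was possible because no replicate number links cells of different groups. Precision is limited by 22 arrays, by 1 sample per type and stage, and by a floor under which low transcripts cannot be ordered.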
